A study of Mus musculus with 4 samples.

Results

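The BCL2 family decides whether a cell keeps its mitochondria sealed or enters apoptosis. Its transcripts were followed here in cultured mouse chondrocytes that were or were not given tumour necrosis factor (TNF). The members were 10 genes, namely the anti-apoptotic Bcl2, Bcl2l1 and Mcl1, the effectors Bax and Bak1, and the BH3-only genes Bid, Bad, Bcl2l11, Bbc3 and Pmaip1. They were chosen by name, and their probes were those whose annotated accession is a RefSeq transcript of the gene. This gave 13 probes of the 55619 kept, and 10 of 37042 genes or unnamed transcripts. Bcl2l1, Mcl1 and Bad had 2 probes each and the other 7 members had 1.

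Primary chondrocytes came from 6-day-old mice of the C57BL/6J strain. The mice were Rela fl/fl (control), in which the gene for the NF-κB subunit Rela carries sites for Cre on both alleles, or their Prrx1-Cre; Rela fl/fl littermates (cKO). Both genotypes carry the floxed alleles, and Prrx1-Cre is active in limb mesenchyme and the cells that descend from it. Cells were cultured for 3 days without TNF or with 10 ng ml−1 of it. Labelled RNA of each of the 4 combinations was hybridised to 1 array with 1 dye, and the number of mice behind a culture is not given in the sources used here. With 1 array per combination no difference has a replicate check, no test was run, and all differences are those between single cultures.

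BCL2 family proteins meet on the outer membrane of mitochondria. Death signals raise or activate BH3-only proteins, which occupy the anti-apoptotic members or act directly on BAX and BAK. BAX and BAK then form pores that let cytochrome c reach the cytosol, where APAF1 and caspase-9 start the caspase cascade. Many of these steps run through protein cleavage, phosphorylation and turnover, which an RNA array does not measure. NF-κB, of which Rela is the main activating subunit, is known to protect cells from TNF partly through transcription of survival genes, Bcl2l1 among them.

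Because Rela binds κB sites, the promoters of the members were read for them in the RefSeq table of GRCm38.p6, from 250 bases before to 50 bases after each start. The 9 members other than Pmaip1 had 15 promoters. The loose form, GGG followed by any 5 letters and CC and searched on both strands, lay in 13 of these 15 and in 50.8% of all 32851 promoters. The stricter κB consensus, whose matches are all matches of the loose form too, lay in 2 of the 15 and in 8.46% of all promoters. A strict match of each is shown here because they belong to Bcl2l1, an anti-apoptotic member, and Bbc3, a BH3-only one. The only loose match of Bid is shown because Bid had the largest difference with TNF among the members. Each line runs 5′ to 3′ along the gene's strand, with the match in capitals.
Bcl2l1, chr2:152830940-152830967, minus strand: tgtttgtgGGGGGTCTCCagcatacgcc
Bbc3, chr7:16309436-16309465, plus strand: tctggctgccGGGAAACCCCccgcgccgag
Bid, chr6:120916911-120916940, minus strand: gtagcgagccGGTAGGACCCttgggtttcc
The match began 242 bases before the start in Bcl2l1, 137 in Bbc3 and 106 in Bid, where it lay on the opposite strand. A match says only that these letters are present, and whether Rela occupies any of these windows was not measured here.

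A signal below is the processed intensity of a probe divided by the 75th percentile of the transcript spots on its own array, so that a signal of 1 is that percentile. Signals are compared between arrays for 1 probe and never between probes, because probes bind their targets with unequal strength. Differences are on the log2 scale, and a gene was counted as changed when it differed by 1 or more (2-fold) with the brighter array well above background by the scanner software's own flag. Where a gene has several probes, the brightest over the 4 arrays stands for it. The only available error is technical. From probes spotted 10 times on each array, the SD of a difference between 2 single spots was 0.14, and 2 such SDs came to 0.28. Nearer to the level of each probe this SD ran from 0.07 for Bax to 0.32 for the dim Bcl2l11. It comes from spots within an array, so it holds nothing of the spread between labellings, hybridisations or cultures.

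The 4 arrays shared 1 slide and 1 scan. Between 50.9% and 58.1% of probes were well above background, and bright patches, where neighbouring spots were bright on only 1 array, covered 1.04% to 10.7% of the spots of an array but held only 1 of the 52 member spots. Rela itself, the targeted gene, had signals of 28.3 and 34.7 in control cultures without and with TNF and 33.9 and 40.2 on the cKO-labelled arrays. Its signal was thus not lower there, and a probe outside the deleted exons would not show the deletion; where this probe lies is not given in the sources used here. Xist cleared background on the control arrays and not on those labelled cKO. The Y-linked Eif2s3y was higher by 1.81 and 1.83 on the cKO-labelled arrays, where Ddx3y and Uty were higher too. Eif2s3y and Ddx3y were also well above background on the control arrays, at signals of 1.77 and 1.84 for Eif2s3y. The control cultures thus held both Xist and Y-linked transcripts. Genotype and sex makeup therefore cannot be told apart in any difference between the genotypes. All 14 chondrocyte markers, among them Col2a1, Acan and Sox9, were well above background on every array. They were lower on the cKO-labelled arrays in 14 of 14 cases without TNF (median -0.71) and in 13 of 14 with TNF (median -0.43), and without TNF Matn1 (-1.85), Snorc (-1.33) and Col9a2 (-1.06) were past 2-fold. Their summed signal was 1882 and 1770 in control cultures without and with TNF, and 1436 and 1481 on the cKO-labelled arrays. All 8 fibroblast or perichondrium markers were well above background on every array too, and were lower on the cKO-labelled arrays in 7 of 8 cases without TNF (median -0.30, with Thy1 at -1.59) and in 8 of 8 with it (median -0.32). Of the 10 leukocyte markers on the array, 7 were well above background on every array, while Ptprc was not on any. Their summed signal ran from 38.0 to 46.5. Such a sum follows the list's brightest probes, here that of Itgam (31.8 to 40.3), so it is compared between arrays only and says nothing of levels between genes. Between the genotypes without TNF, Lyz2 (-2.11) and Tyrobp (-1.61 or below) were lower and Adgre1 (2.87) was higher on the cKO-labelled array. For Lyz2 and Adgre1 the brighter spot lies in a bright patch. Of the 5 muscle markers, Acta1 was well above background on every array and higher on the cKO-labelled ones by 0.55 without and 0.54 with TNF. Des was well above background only on the cKO-labelled array with TNF, and Myod1, Myog and Ckm on none. The summed signal of the osteoblast markers was 4.25 and 3.53 in control cultures and 9.28 and 7.01 on the cKO-labelled arrays, where Ibsp was higher by 1.13 without and 0.97 with TNF and Sp7 by 0.70 and at least 1.81. In these bulk cultures, fewer cells of a type and less RNA per cell cannot be told apart, and the part of this shift in the values below was not tested.

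The members were first counted against fixed limits. No member, 0 of 10, reached 2-fold in any of the 4 comparisons, where 6.66% of 23408 genes did so with TNF in control cultures and 5.47% of 24903 with TNF on the cKO-labelled arrays. Between the genotypes these shares were 7.9% of 24277 genes without TNF and 4.37% of 24513 with TNF. With spots in bright patches left out the 4 shares were 1.23%, 2.45%, 2.32% and 1.98%, which is the closer background for members that lie almost wholly outside patches. Against such shares, a count of 0 among 10 is near the background and is no result about the family. Lowering the limit to 1.5-fold added only Bid with TNF in control cultures, 1 member of 10 beside 10.8% of all genes, or 4.66% with patches left out. The corresponding shares of all genes were 12.1% with TNF on the cKO-labelled arrays, 13.6% between the genotypes without TNF and 10.2% with it, or 9.04%, 7.74% and 7.48% with patches left out, and 0 of 10 members reached 1.5-fold in these 3.

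Small differences were more common. Bid alone differed by over 2 technical SDs with TNF in control cultures (1 of 10, against 23.7% of all genes). On the cKO-labelled arrays, Bcl2l1, Mcl1, Bid and Pmaip1 were higher with TNF by over 2 technical SDs and Bcl2l11 was lower, 5 of 10 against 29.8%. Between the genotypes, Bak1, Bcl2l11 and Pmaip1 were higher without TNF (3 of 10, against 29.3%). With TNF, Bak1, Bcl2, Bcl2l1 and Pmaip1 were higher (4 of 10, against 29.5%). These counts use 1 SD for all probes. With the SD at the level of each probe, which is smaller for bright ones and larger for dim ones, other members passed and Bcl2l11 did not. With TNF in control cultures Bax, Bid, Mcl1 and Pmaip1 were then higher (4 of 10, against 20.6% of the 21587 genes with such an SD), and on the cKO-labelled arrays Bak1, Bbc3, Bcl2l1, Bid, Mcl1 and Pmaip1 were (6 of 10, against 27.3%). Between the genotypes without TNF, Bak1, Bax, Bid and Pmaip1 were higher and Bbc3 lower (5 of 10, against 27%). With TNF, Bak1, Bcl2, Bcl2l1, Mcl1 and Pmaip1 were higher (5 of 10, against 28%). The median over the members was above that over all genes in each comparison, at 0.10 against 0.01 and 0.17 against 0.06 for TNF, and at 0.14 against 0.01 and 0.17 against 0.06 for the genotypes without and with TNF. The median size of a difference, regardless of sign, was 0.15 over the members against 0.12 over all genes and 0.24 against 0.17 for TNF, and 0.19 against 0.15 and 0.17 against 0.16 for the genotypes. The 4 comparisons share arrays and are not independent of each other.

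**Figure D1:**
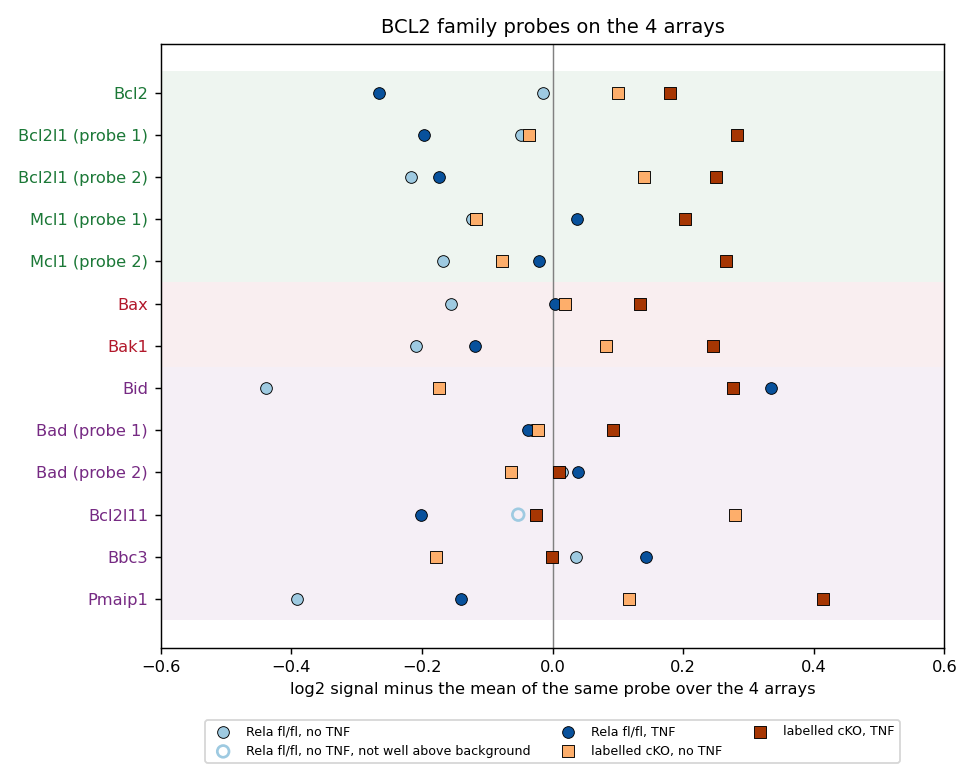
Signals of the 13 BCL2 family probes on the 4 arrays, as log2 signal minus the mean of the same probe over the 4 arrays (x axis); circles are control (Rela fl/fl), squares are labelled cKO, dark symbols are with TNF, and the open circle was not well above background. Bid and both Mcl1 probes have both TNF arrays at the right. Pmaip1 has both cKO-labelled arrays at the right, as do Bak1, the dimmer Bcl2l1 probe and others.

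By their leading probes, all 3 anti-apoptotic genes had a larger difference of cKO over control with TNF than without it, though this was not tested. So had 7 of the 10 members, with Bak1, Bad, Bbc3 and Pmaip1, and 58.8% of 20482 genes well above background on every array. Leaving out the scaling of the arrays lowers this value by 0.11 in every one of these genes, and then 4 of the 10 members and 39.2% of the genes lay above 0, so the count depends on the scaling as that of all genes does. Bcl2, the founding member of the family, had signals of 0.480 without and 0.403 with TNF in control cultures, and of 0.520 and 0.549 on the cKO-labelled arrays. The control array with TNF was the lowest and the cKO-labelled array with TNF the highest. The difference with TNF was -0.25 in control cultures and 0.08 on the cKO-labelled arrays, and the genotypes differed by 0.11 without and 0.45 with TNF. At the level of this probe, the technical SD of a difference was 0.14. Between the genotypes with TNF, 15.6% of all genes differed by at least as much, and 8.09% were as much higher or more.

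Bcl2l1 encodes BCL-XL, which holds BAX and BH3-only proteins in check, and a shorter, pro-apoptotic splice form. Its brighter probe had signals of 30.2 without and 27.2 with TNF in control cultures, and of 30.4 and 37.9 on the cKO-labelled arrays. The 2 arrays without TNF were nearly equal, while those with TNF lay on either side of them. The difference with TNF was -0.15 in control cultures and 0.32 on the cKO-labelled arrays, with a technical SD of 0.08, and the genotypes differed by 0.01 without and 0.48 with TNF. Of all genes, 14.1% differed between the genotypes with TNF by at least as much as Bcl2l1.

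The second, dimmer probe of Bcl2l1 showed another order. Its signals were 0.347 and 0.358 in control cultures without and with TNF and 0.445 and 0.480 on the cKO-labelled arrays. Both cKO-labelled arrays were above both control arrays, by 0.36 without and 0.42 with TNF, and the differences with TNF were 0.04 and 0.11. The probes thus had like differences between the genotypes with TNF but not without it, at technical SDs of 0.08 and 0.16. Both name NM_009743, 1 of 5 RefSeq mRNA transcripts of the gene, and which splice forms each of them reads was not tested.

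Mcl1 encodes a short-lived anti-apoptotic protein that is neutralised by NOXA, the product of Pmaip1. Signals of its brighter probe were 16.5 and 18.5 in control cultures without and with TNF, and 16.6 and 20.7 on the cKO-labelled arrays. Signals of the other probe were 4.10 and 4.53, and 4.36 and 5.53, in the same order. On both probes each array with TNF was above each array without it, and the cKO-labelled array with TNF was the highest. The differences with TNF were 0.16 and 0.15 in control cultures and 0.32 and 0.34 on the cKO-labelled arrays, at technical SDs of 0.08 for each probe. The genotypes differed by 0.01 and 0.09 without TNF and by 0.17 and 0.29 with it. The spot of the dimmer probe on the cKO-labelled array without TNF is the only member spot inside a bright patch.

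The measured signals of the effectors were slightly higher with TNF and on the cKO-labelled arrays, but some differences lay within the technical spread. Bax did not pass the technical limit at its own level with TNF on the cKO-labelled arrays (0.11). Nor did Bax between the genotypes with TNF (0.13), or Bak1 with TNF in control cultures (0.09). Bax, whose protein moves from the cytosol to mitochondria when activated, had signals of 30.7 and 34.3 in control cultures without and with TNF and of 34.7 and 37.6 on the cKO-labelled arrays. Its differences lay between 0.11 and 0.17 in all 4 comparisons, with a technical SD of 0.07. The smallest of them, with TNF on the cKO-labelled arrays, changed sign under quantile normalisation (-0.03).

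Bak1, whose protein sits on mitochondria from the outset, had signals of 8.96 and 9.54 in control cultures without and with TNF and of 10.96 and 12.3 on the cKO-labelled arrays. Both cKO-labelled arrays were above both control arrays. The genotypes differed by 0.29 without and 0.36 with TNF, at a technical SD of 0.08, and the differences with TNF were 0.09 and 0.16. In these genotype comparisons 28.9% and 20.9% of all genes differed by at least as much.

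**Figure D2:**
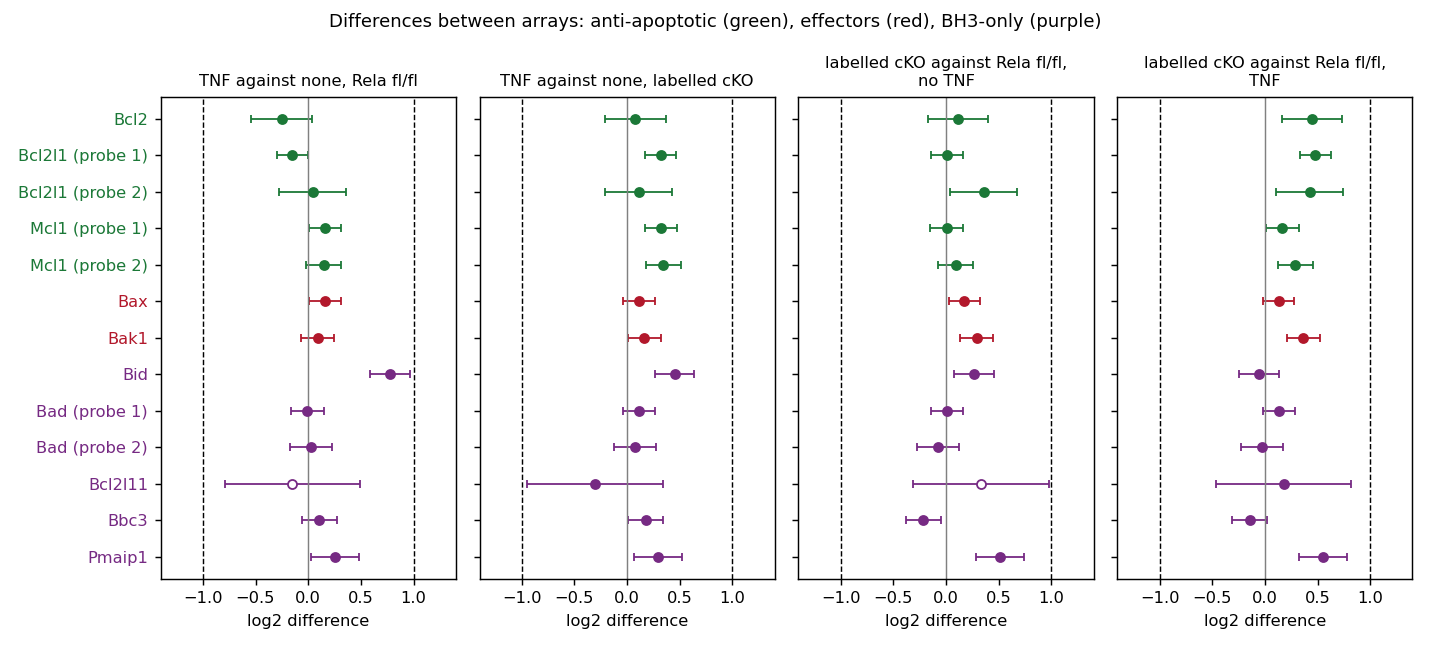
Log2 differences (x axis) of the 13 BCL2 family probes in the 4 comparisons, with bars of 2 technical SDs at the level of each probe, which leave out the spread between cultures; dashed lines mark 2-fold and open points have an array that was not well above background. All points lie inside the 2-fold lines, and Bid with TNF in control cultures is the farthest from 0 at 0.77.

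Among the BH3-only genes, Bid differed most with TNF. BID links death receptors to mitochondria, since caspase-8 downstream of the TNF receptor cleaves it to a form that activates BAX and BAK. Its signals were 1.68 without and 2.86 with TNF in control cultures, and 2.01 and 2.75 on the cKO-labelled arrays. Both arrays with TNF were above both without it. The difference with TNF was 0.77 in control cultures (1.71-fold) and 0.45 on the cKO-labelled arrays (1.37-fold), with a technical SD of 0.09. Among all genes, 8.24% differed by at least 0.77 with TNF in control cultures and 3.06% were as much higher or more. Once spots in bright patches were left out, the share that differed as much was 2.32%. Between the genotypes Bid differed by 0.26 without TNF and by -0.06 with it. By leading probes, Bid was thus the one member whose genotype difference changed sign with TNF (so did Bad with its probes averaged), though the -0.06 is within 1 technical SD.

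Pmaip1 separated by genotype rather than by treatment. Its signals were 0.774 and 0.921 in control cultures without and with TNF, and 1.101 and 1.35 on the cKO-labelled arrays. Both cKO-labelled arrays were above both control arrays, and within each genotype the array with TNF was the higher one. The genotypes differed by 0.51 without and 0.55 with TNF (1.42-fold and 1.47-fold), and the differences with TNF were 0.25 in control cultures and 0.30 on the cKO-labelled arrays, at a technical SD of 0.11. Its genotype differences were reached or exceeded in size by 15.9% of all genes without TNF and by 11.1% with it, or by 9.92% and 8.34% with patches left out. Pmaip1 had the widest range of the members over the 4 arrays (0.80), ahead of Bid (0.77).

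Bbc3 encodes PUMA, which binds all the main anti-apoptotic proteins and is a known target of p53. Its signals were 5.22 and 5.62 in control cultures without and with TNF and 4.497 and 5.09 on the cKO-labelled arrays. By leading probes it was the only member lower on the cKO-labelled arrays both without TNF (-0.21) and with it (-0.14), at a technical SD of 0.08. With TNF it differed by 0.11 and 0.18, and its probe names 1 of 6 RefSeq mRNA transcripts. The Bbc3 window printed above thus belongs to a gene whose differences all lay between -0.21 and 0.18.

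Bad, whose protein is held inactive by phosphorylation under survival signals, was the steadiest member. The brighter probe had signals of 18.5 and 18.4 in control cultures without and with TNF, and 18.6 and 20.1 on the cKO-labelled arrays. The other probe had 1.43 and 1.46, and 1.36 and 1.43. All differences of Bad lay between -0.08 and 0.13 on both probes, and its range over the 4 arrays was 0.13 and 0.10.

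Bcl2l11 encodes BIM, a strong activator of BAX and BAK, and was barely detected. Its intensity was 37.6 and 34.1 in control cultures without and with TNF and 48.9 and 36.8 on the cKO-labelled arrays, and the first of these was not well above background. The signals were 0.0612, 0.0552, 0.0771 and 0.0624 in that order, and the cKO-labelled array without TNF was the highest. The difference with TNF on the cKO-labelled arrays was -0.30 and that between the genotypes with TNF was 0.18, both within 1 technical SD of 0.32. Without TNF, the measured signals of the genotypes differed by 0.33, near the technical SD. No fold is given for TNF in control cultures, where the brighter array was the one not well above background. There Bcl2l11 could not be counted as changed, though it stays among the 10 members tested and in their median. The probe names 1 of 5 RefSeq mRNA transcripts of the gene.

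The comparisons that share no array were set side by side. Of the 9 members well above background on all 4 arrays, 6 had the same sign with TNF in both genotypes. Of 20482 such genes, 55.7% did. The other 3 members were Bcl2, Bcl2l1 and Bad, each below 0 in control cultures and above it on the cKO-labelled arrays. Without scaling of the arrays, Bcl2 (-0.24 and -0.03) and Bad (0.00 and 0.01) had the same sign in both genotypes. Between the genotypes 8 of 9 had the same sign without and with TNF, against 58.4% of those genes, with Bid as the exception. With Bcl2l11 added by its measured signal, the counts were 7 of 10 and 9 of 10. Many of these values are smaller than 2 technical SDs.

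**Figure D3:**
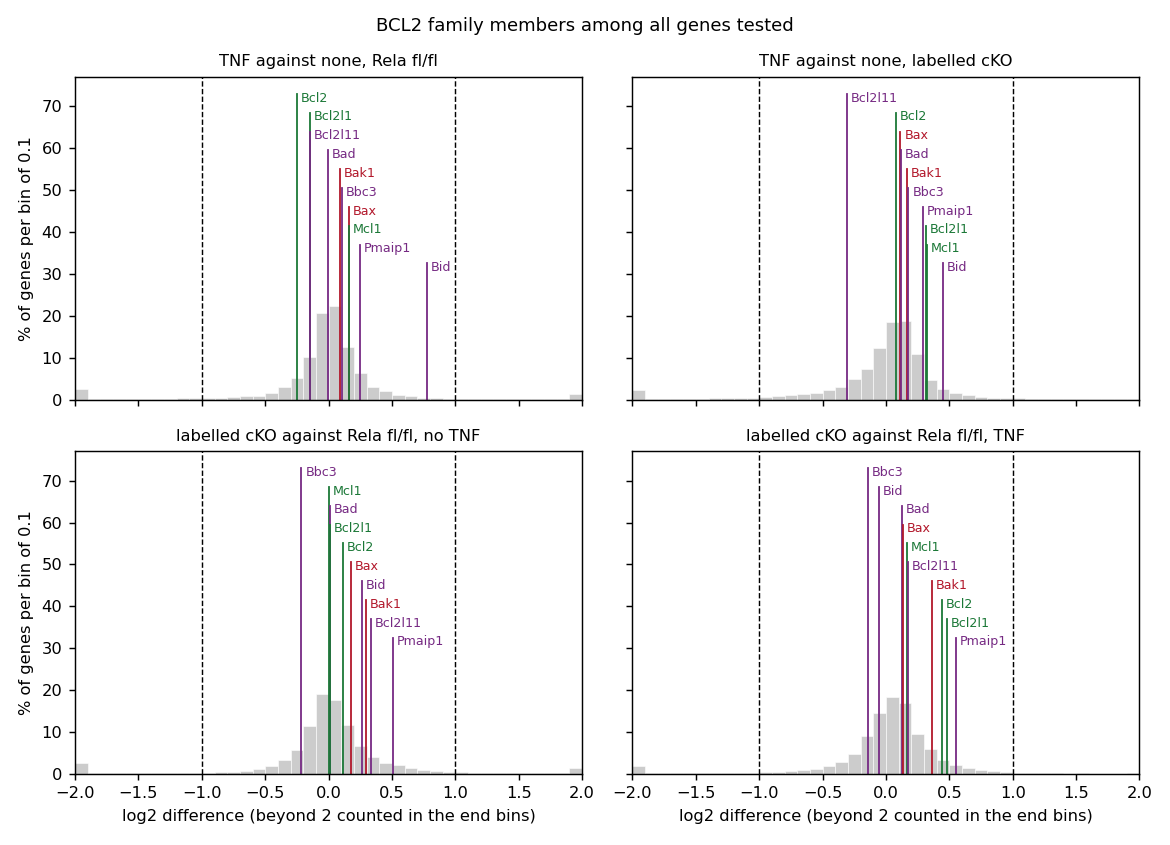
Log2 differences of the 10 members, by their brightest probe (named vertical lines, green for anti-apoptotic, red for effectors, purple for BH3-only), over the distribution of all genes tested (grey bars, percent of genes per bin of 0.1); line heights carry no value and dashed lines mark 2-fold. Bid stands apart at the right with TNF in control cultures, and all other member differences lie between -0.30 and 0.55.

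Changes were also taken as ratios of an anti-apoptotic gene to a pro-apoptotic one, which a single factor per array leaves as they are. Bcl2l1 over Bax differed with TNF by -0.31 in control cultures and by 0.20 on the cKO-labelled arrays, so that the genotypes differed by -0.16 without and 0.35 with TNF. With the dimmer Bcl2l1 probe, a choice made after the values were seen, these 4 values were -0.12, -0.00, 0.18 and 0.29. Bcl2 over Bax differed with TNF by -0.41 and -0.04, and by -0.35 and 0.20 under quantile normalisation. For Bcl2l1 over Bid the differences with TNF were -0.92, the largest of the 8 ratios taken in control cultures, and -0.13, and those between the genotypes were -0.25 without and 0.54 with TNF. With the dimmer Bcl2l1 probe these were -0.73, -0.34, 0.09 and 0.48. The technical SD of such a ratio difference, from those of its 2 probes, was 0.11 for Bcl2l1 over Bax, 0.16 for Bcl2 over Bax and 0.12 for Bcl2l1 over Bid. With the dimmer Bcl2l1 probe it was 0.18 over Bax and 0.19 over Bid, so that the -0.12 lies within 1 SD of 0. Of the 8 ratios, 6 were below 0 with TNF in control cultures, 5 of them by over 2 technical SDs. With TNF on the cKO-labelled arrays 3 were below 0, and 0 passed 2 SDs in either direction. Between the genotypes without TNF, 8 of 8 were below 0, 4 of them by over 2 SDs. Between the genotypes with TNF, 6 were above 0 and 2 below, and 2 were higher and 1 lower by over 2 SDs. The 5 in control cultures all hold Bcl2l1 or Bcl2 and so share probes. With the dimmer Bcl2l1 probe, Bcl2l1 over Bax and over Bak1 (-0.05, SD 0.18) fell within 2 SDs. Under quantile normalisation Bcl2 over Bak1 did too (-0.27, SD 0.16). With the normexp background, Bcl2l1 over Bax with TNF on the cKO-labelled arrays (0.23, SD 0.11) passed 2 SDs. The 8 pairs were not planned and no share over other gene pairs was taken, so these counts have no background.

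Mcl1 over Pmaip1, the pair whose proteins bind each other, differed with TNF by -0.09 in control cultures and 0.02 on the cKO-labelled arrays (-0.08 under quantile normalisation and 0.12 with the normexp background), and between the genotypes by -0.50 without and -0.39 with TNF (-0.25 with normexp and -0.27 with the other Mcl1 probe). Mcl1 over Bax differed by 0.00 and 0.21 with TNF and Mcl1 over Bak1 by 0.07 and 0.16, all within 2 technical SDs. The 0.21 became 0.23 under quantile normalisation, with normexp and with the other Mcl1 probe, past 2 SDs each time. Between the genotypes Mcl1 over Bax differed by -0.17 without and 0.03 with TNF, and Mcl1 over Bak1 by -0.29 and -0.20. Only the -0.29 passed 2 SDs, and it was -0.22 with normexp and -0.20 with the other probe, within 2 SDs. A ratio shows that the numerator and denominator changed unequally, not that one of them did not change.

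The TNF treatment could be seen in other genes of these arrays. Of 19 NF-κB response genes tested with TNF, 9 were at least 2-fold higher in control cultures (median 0.97) and 5 on the cKO-labelled arrays (median 0.57). The chemokine gene Ccl2 was higher by 5.02 and 3.17, Nfkbia, the inhibitor of NF-κB, by 1.51 and 0.87, and Tnfaip3, which ends the NF-κB signal, by 1.78 and 0.51. With TNF, 7 of 19 of them were at least 2-fold lower on the cKO-labelled arrays and 1, Traf1, was higher. The 10 members had medians of 0.10 and 0.17 with TNF on the same arrays.

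The pathway downstream of BAX and BAK was read from a list of its own. All 13 listed genes, which include Cycs (cytochrome c), Apaf1, Casp9, Diablo, Xiap and the VDAC channels, were well above background on every array. Of these, 0 of 13 reached 2-fold in any comparison, which like that of the members is near the shares of all genes given above, and their medians were -0.00 and 0.17 with TNF and 0.03 and 0.08 between the genotypes. Cycs differed most between the genotypes with TNF (0.41), and Endog, a mitochondrial nuclease, without it (-0.38), though its spot on the control array used there lies in a bright patch.

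Of 16 listed regulators of the family's transcription or protein turnover, 15 were on the array and all of these were well above background on every array. Foxo3, which can activate Bcl2l11 and Bbc3, was the only one past 2-fold, with differences of -1.30 with TNF in control cultures and -1.60 between the genotypes without TNF. Its spot on the shared control array without TNF lies in a bright patch, and with TNF the genotypes differed by 0.11. Trp53, which encodes p53, was higher with TNF by 0.36 and 0.37 and differed between the genotypes by 0.08 and 0.09. Medians of the list were -0.02 and 0.14 with TNF and 0.05 and 0.09 between the genotypes.

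**Figure D4:**
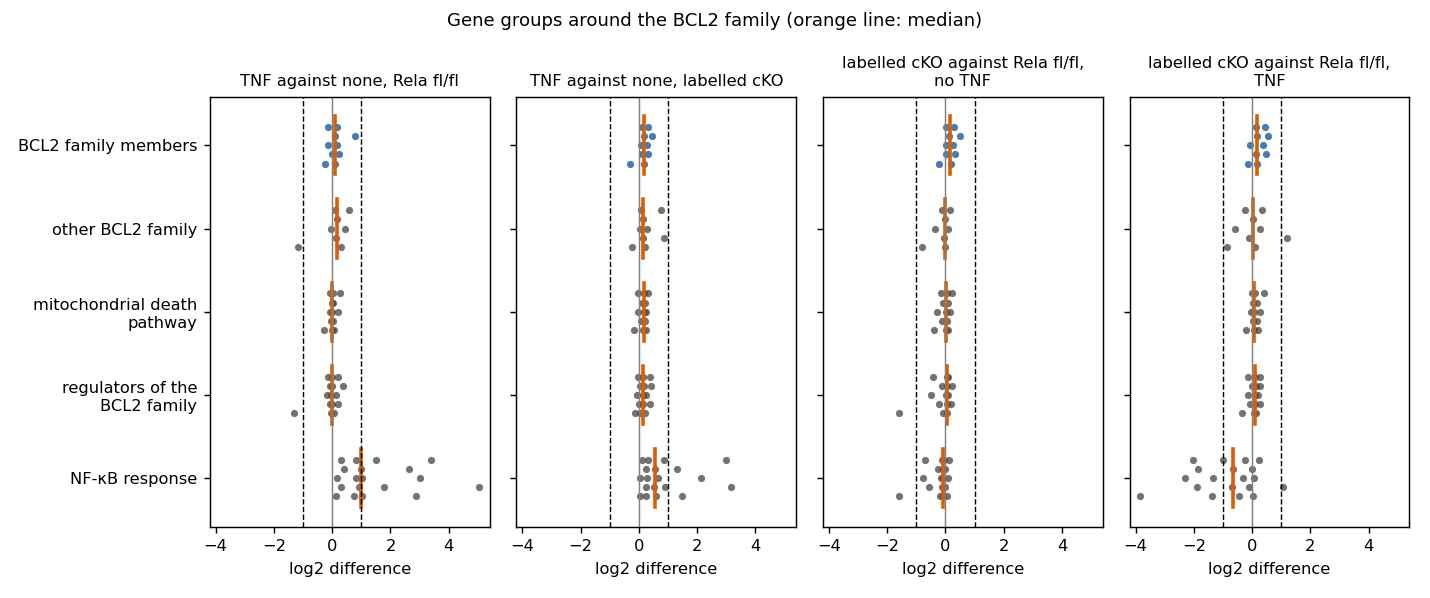
Log2 differences (x axis) of single genes (points) in the 4 comparisons for the BCL2 family members and 4 gene lists, with the median of each list as an orange line and dashed lines at 2-fold. The members and the mitochondrial death pathway stay inside the 2-fold lines, while the NF-κB response genes reach beyond them with TNF.

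Genes with a pattern like that of Pmaip1, the member with the widest range, were looked for among 13350 genes with a symbol with readings well above background on every array. Likeness was the Euclidean distance between log2 signals centred over the 4 arrays. The nearest were Prkx (0.047), Camk1d (0.050) and Plec (0.058). Like Pmaip1, they were higher on the cKO-labelled arrays, by 0.44, 0.50 and 0.47 without TNF. With 4 values per gene this likeness is a description of these arrays only.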

How the data were processed

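RNA of 4 cultures was read on an Agilent mouse array with 1 dye, 1 array per condition. The authors deposited spot intensity values written by Agilent Feature Extraction 10.10.1.1, after background subtraction and correction of spatial trends. A second table the authors deposited holds the same intensity values multiplied by a single factor for each array (1.77 to 1.83), whose basis is not given in the sources used here.

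From the processed intensity, outlier spots were dropped, log2 was taken, repeated spots were averaged and the array's 75th percentile of transcript spots (590 to 634 intensity units) was subtracted. The dimmer side of a difference, where its flag was not set, was set no lower than the faintest flagged signal of its array. Symbols came from RefSeq (GRCm38.p6) by accession, for 27229 of 55681 probes. The technical SD came from the 173 to 215 probes per array whose 10 spots were all well above background. A patch was called around a spot if, of the 54 others within 5 rows and 2 columns, at least 3 were 2-fold or more brighter than on the other 3 arrays.

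The members, gene lists and patch rule were chosen with earlier results of these data known. Named were all members with every probe, the 3 nearest genes to the member of widest range, Rela, and up to 5 genes per list from those past the limit in a comparison; other listed genes were named after their values were seen. No p-values were computed, and the number of arrays limits the precision. The SD at the level of each probe and the other probe or scaling in ratios were added after the values were seen. Alternatives covered scaling, background (normexp, offset 50), filters, limits, probe choice and patches. Protein sequences were not used here. Scripts ran in Python 3.11.15 (numpy 2.4.6, pandas 2.3.3, matplotlib 3.10.9), and limma 3.58.1 in R 4.3.3 gave the quantile and normexp values.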

Additional observations from a re-analysis of the deposited data

Results flagged for a closer look

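In 3 members the difference with TNF was below 0 in control cultures and above 0 on the cKO-labelled arrays. With 1 array per condition these differences were not tested. For Bcl2l1, the TNF differences of -0.15 and 0.32 lie 0.47 apart on its brighter probe, while those of its other probe, 0.04 and 0.11, lie 0.07 apart. For Bcl2, -0.25 and 0.08 lie 0.33 apart, and the 0.08 became -0.03 without scaling of the arrays, which lowers all genes there alike. For Bad, -0.01 and 0.11 lie 0.12 apart, and both values are within 2 technical SDs of 0.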

How the results depend on the processing

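The count of members past the limit stayed at 0 in all 4 comparisons under every alternative tried except a limit of 1.5-fold, which gave 1 with TNF in control cultures, namely Bid. A limit of 3-fold, also tried, could only lower a count. The medians of the members kept their sign under every alternative, at 0.06 to 0.11 and 0.06 to 0.18 with TNF and at 0.07 to 0.19 and 0.10 to 0.20 between the genotypes. Of 397 recomputed single values under 8 settings, 365 moved by less than the technical SD and 32 by more. Many of the 365 could not move. Changing the filter or leaving out patches gave each member the same value, and averaging over probes alters only Bcl2l1, Mcl1 and Bad. The sign changed in 16 of the 397 values. Of these, 9 arose under settings that differ by 1 factor per array (no scaling, the authors' value table) and move all genes alike. The other 7 belong to 6 of 50 differences, namely 3 of Bad, that of Bax with TNF on the cKO-labelled arrays, and the difference between the TNF effects in Bak1 and Pmaip1. Bid with TNF stayed between 0.74 and 0.81 in control cultures and between 0.34 and 0.48 on the cKO-labelled arrays. Bcl2l1 between the genotypes with TNF stayed between 0.41 and 0.52. Without scaling, the median of all genes with TNF on the cKO-labelled arrays was -0.05 in place of 0.06, so small differences there depend on the scaling. No paired analysis was possible because each condition had 1 array and no test was run, and no array could be left out. Signal near background limits Bcl2l11 alone among the members.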

Other observations

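Other BCL2 family genes were also on the arrays. Of 15 listed, 13 had a probe, 7 were well above background on all 4 arrays and 4 on none. Bcl2l15 was the only one past 2-fold, at -1.16 or below with TNF in control cultures and 1.20 or above between the genotypes with TNF; it was dim, and its spot on the control array without TNF lies in a bright patch. Bnip3 and Bnip3l, whose proteins act in the removal of mitochondria, were higher with TNF in control cultures by 0.58 and 0.46 and on the cKO-labelled arrays by 0.13 and 0.23. Signals of Bnip3 were 61.8 and 92.6 in control cultures without and with TNF and 56.5 and 61.9 on the cKO-labelled arrays, and only the control array with TNF stood away from the rest; its spot there lies in a bright patch. Bmf, a BH3-only gene, differed with TNF by 0.29 in control cultures and -0.23 on the cKO-labelled arrays, and between the genotypes with TNF by -0.87. The BCL2-related Bcl2l2, Bcl2l13 and Bok differed by 0.27 at most in any comparison. These 6 genes other than Bcl2l15 were named after their values were seen.

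Bid had the second widest range of the members, and its neighbours were looked up after its values were seen. Ern2 (0.050), Dio3 (0.072) and Nbl1 (0.085) were nearest by the same distance, and Nbl1 was higher with TNF by 0.74 in control cultures and by 0.34 on the cKO-labelled arrays.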
